A study of Arabidopsis thaliana with 6 samples.

Results

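The genes described here are those whose transcripts gave the brightest signals in dark-grown wild-type seedlings of Arabidopsis thaliana. They were chosen by 1 rule: a probe set that names a single nuclear gene and has a deposited signal of 10000 or more on each of the 3 wild-type arrays. Affymetrix controls, plastid and mitochondrial genes and the geranylgeranyl reductase gene AT1G74470 were left out. The rule found 32 probe sets, each for a different gene, among 13414 that name 1 nuclear gene and 22746 non-control probe sets in all. The wild-type levels therefore chose the genes, and those levels are given as a description. The pif1-2 arrays were not used by the rule, and the question is whether the levels hold there.

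The seedlings were grown on MS medium. Before that, seeds of both genotypes spent 4 days in the cold and received 1 hour of light to start germination, and afterwards they stayed for 4 days in darkness at 21 °C. The groups are pif1-2, a T-DNA insertion mutant of PIF1 (Salk_072677), and the wild type (Wt, col-o), with 3 whole-seedling samples each, hybridised to 1 ATH1 array per sample. The labels state that PIF1 mRNA is very low in the mutant and that etiolated wild-type seedlings are about 2 mm taller. The title of the series gives the locus At2g20810 for the allele, whereas PIF1 is AT2G20180 in the RefSeq table. Neither locus had a named probe set (0 found), so that the genotype rests on the labels.

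A seedling that germinates in darkness lives on the oil and protein stored in its seed. It puts its growth into a long hypocotyl with a closed apical hook, and its plastids remain etioplasts. Elongating cells secrete wall proteins, peroxidases and pectin-modifying enzymes, enlarge their vacuoles and keep translation running. PIF1, a DNA-binding regulator of the helix-loop-helix class, interacts with phytochrome, works in seeds and in seedlings kept dark, and is degraded in light. In these whole seedlings, fewer cells of a type and less RNA per cell cannot be told apart.

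Signals are MAS5 values, linear and in arbitrary units, given as deposited. The brightness of a probe set also depends on its probes, so that the order of signals between genes is not an order of transcript numbers, and "most abundant" is here a statement about signal. Of the 151 non-control probe sets that reach the limit on each wild-type array, 92 are not listed in the annotation, 18 are plastid-encoded, 8 name several genes and 1 is AT1G74470. The 32 genes are therefore 21.2% of the bright probe sets and not a census of abundant transcripts. Their spread over the chromosomes was 9 genes on chromosome 1, 7 on chromosome 2, 9 on chromosome 3, 3 on chromosome 4 and 4 on chromosome 5. JAL33 and JAL34 are neighbours with 0 protein-coding genes between them, and AT3G16370 lies 8 protein-coding genes from JAL33. The median gene span was 1896 bases, against 2251 bases for all nuclear probe sets tested that name 1 gene. The tables name 11 of the 32 by symbol and 21 by locus alone. For these the protein family is given as general background on the locus.

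The etiolated state could be checked against few defining markers, because 6 of the 26 markers set down for tissues and stages had a named probe set. PORB, a protochlorophyllide oxidoreductase, had 6715 ± 2147 in pif1-2 and 9147.5 ± 1250 in wild type (SD, n = 3 each). PORA and PHYA, the other markers of etiolated seedlings, had no named probe set and were not analysed here, nor were any of the 9 markers of light-grown tissue. PORB alone does not settle the etiolated state, which rests on the labels. The 3 root markers with a named probe set were dim: AT1G30870, EXPA7 and EXPA18 averaged between 148 and 255 in pif1-2 and between 142 and 346 in wild type. Of the markers of seed tissue and seed reserves, only OLEO3, an oil-body protein, and ICL had a named probe set. OLEO3 had 908 ± 102 in pif1-2 and 1604 ± 139 in wild type (SD, n = 3 each), and ICL is described beside the limit. The part of seed stage in the levels was not tested.

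By the limit of the rule, the levels largely held in pif1-2. Of the 32 genes, 28 had a signal of 10000 or more on every pif1-2 array as well, and 31 had a mean there above the limit. The other 4 were PRXR1, which lay below it on all 3 pif1-2 arrays, and AT5G19510, AT2G36320 and MT1C, which lay below it on 1 array each. Their wild-type means were 11010, 10458, 10655 and 12390, against 24952 for AT2G45180, the brightest gene. A gene far above the limit could lose much signal and still pass, so the count depends on the distance from the limit. Of all 151 bright probe sets, the 32 among them, 137 likewise reached 10000 on every pif1-2 array. Holding the level is thus not particular to the 32. On each pif1-2 array all 32 stayed among the brightest 1.26% of the non-control probe sets, and on each wild-type array among the brightest 0.796%. Together they held 3.26%, 3.38% and 3.51% of the summed non-control signal on the pif1-2 arrays, against 3.08%, 3.21% and 3.22% on the wild-type arrays. The means were 3.38 ± 0.13% in pif1-2 and 3.17 ± 0.080% in wild type (SD, n = 3 each). With quantile normalization the means were 3.28% in pif1-2 and 3.27% in wild type.

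**Figure D1:**
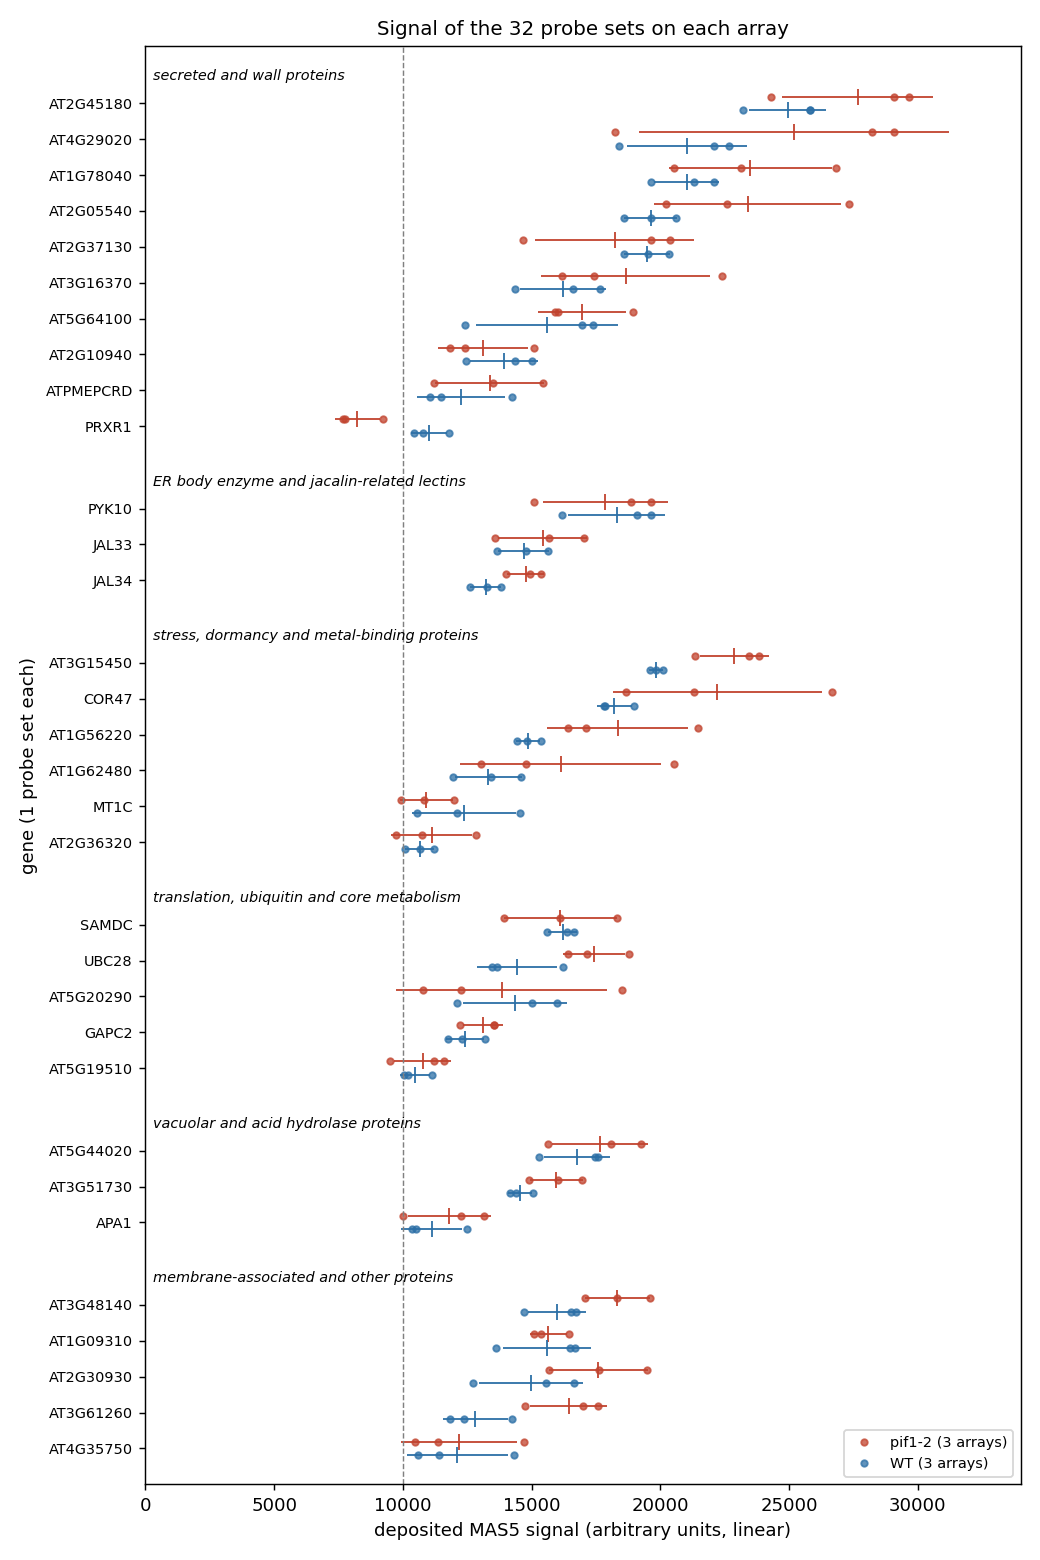
Deposited MAS5 signal of the 32 genes on each array (x axis, linear, arbitrary units), with genes in rows grouped by function, pif1-2 above wild type (WT). Points are arrays, ticks are means, horizontal lines are ± 1 SD and the dashed line is the limit of 10000. PRXR1 is the gene whose pif1-2 arrays all lie left of the limit.

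In the comparison of pif1-2 with wild type, fitted with limma over all 17695 probe sets above a mean scaled signal of 50, 0 of the 32 genes passed an adjusted p of 0.05, and 0.0113% of all probe sets did. Their limma adjusted p-values ran from 0.476 to 0.997. At an unadjusted p under 0.05, 3 genes were on the higher side (background 3.31%) and 1 on the lower side (background 4.36%, and 7.67% in either direction). The 95% intervals of the log2 fold changes, which are pif1-2 minus wild type on the log2(signal + 16) scale, lay between -0.70 and 0.64 over all 32 genes, and 28 of them held 0. For none of the 32 did the interval reach a change of 2-fold. All 3 pif1-2 arrays were above all 3 wild-type arrays for 6 genes (background 6.45%) and below them for 1 (background 6.58%). Of all 151 bright probe sets, the 32 among them, 29 were above in this way and 8 below. The rule required high wild-type values, so nothing is read from these counts.

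The 32 log2 fold changes ran from -0.42 to 0.36 with a median of 0.13, and 25 were positive and 7 negative. Over all probe sets tested the median was 0.00095, with 8871 positive and 8824 negative. The split depended on the scaling: with quantile normalization the median of the 32 was 0.020, with 18 positive and 14 negative. Under that scaling the log2 fold change was lower for all 32 genes. Leaving out 1 array moved the value by over 1.5 times, or turned its sign, for 26 of the 32. The other 6 were PRXR1, AT3G61260, UBC28, AT3G15450, JAL34 and AT3G48140. On the pif1-2 arrays 175, 189 and 199 non-control probe sets reached 10000, against 173, 182 and 173 on the wild-type arrays. These counts overlapped between the genotypes, and the highest was that of pif1-2 replicate 3. The 92 bright probe sets without an annotation entry had a median of 0.13 (76 positive, 16 negative), and the 18 bright plastid-encoded ones had -0.10 (6 positive, 12 negative). Choosing nuclear genes by the mean of all 6 arrays gave 40 genes with a median of 0.14, and choosing by the 3 pif1-2 arrays gave 33 genes with 0.15. No difference between these sets was tested.

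**Figure D2:**
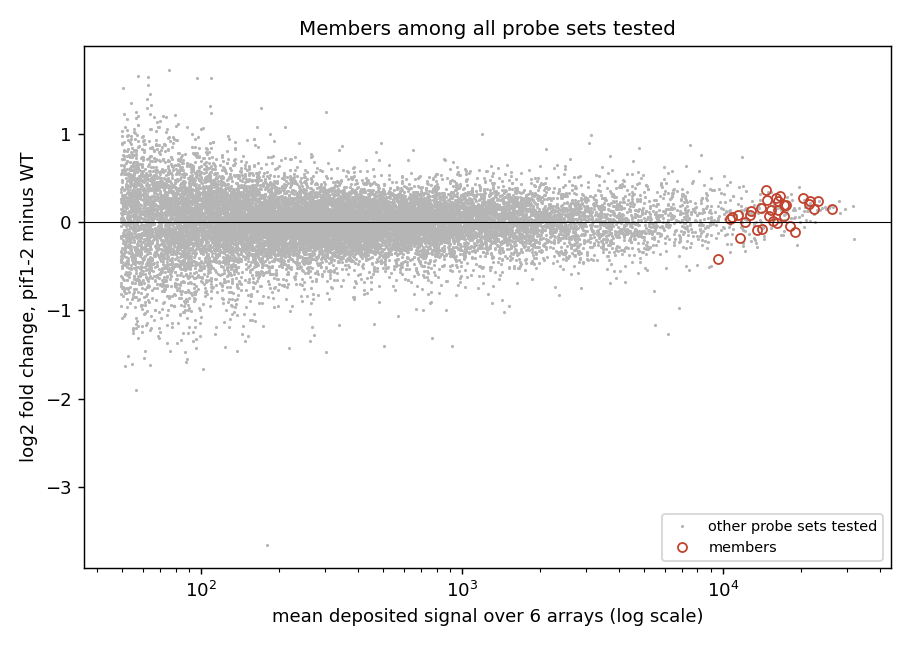
Log2 fold change (y axis, pif1-2 minus wild type) against the mean deposited signal over 6 arrays (x axis, log scale) for all 17695 probe sets tested. The 32 genes are red circles at the bright end, between -0.42 and 0.36, and grey points are all other probe sets.

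The largest of 6 functional groups, which were formed after the genes were known, holds 10 genes for secreted and wall proteins. Their median log2 fold change was 0.14, with 7 positive and 3 negative and 0 called. At an unadjusted p under 0.05, 0 were on the higher side and 1 on the lower side, where all probe sets gave 3.31% and 4.36%. The lipid transfer protein-like genes encode small secreted proteins with conserved cysteines. AT2G45180, one of them, had signals of 24303, 29084 and 29652 on pif1-2 replicates 1 to 3, against 23222, 25818.5 and 25817 on wild-type replicates 1 to 3. Both genotypes had their lowest value on replicate 1, the groups overlapped, and the log2 fold change was 0.15 (SE 0.12), and 0.094 without pif1-2 replicate 3. The other one, AT2G10940, whose product carries a proline-rich stretch, had signals of 12412.5, 15091 and 11819 on pif1-2 replicates 1 to 3, against 12472.5, 15001.5 and 14345 on wild-type replicates 1 to 3. The wild-type arrays fell within the range of the pif1-2 arrays (log2 fold change -0.092, SE 0.13, or -0.022 when leaving out pif1-2 replicate 3).

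The glycine-rich proteins of this group are wall-type proteins rich in a single small residue. AT4G29020 had signals of 18250.0, 28237 and 29079 on pif1-2 replicates 1 to 3, against 18383.5, 22678 and 22109.6 on wild-type replicates 1 to 3. Replicate 1 was lowest in both genotypes, and the other pif1-2 arrays lay above all wild-type arrays (log2 fold change 0.23, SE 0.18). The log2 fold change was 0.11 to 0.45 when any 1 array was left out, the extremes being without pif1-2 replicate 3 and without pif1-2 replicate 1. AT2G05540 had signals of 22587, 20244 and 27355 on pif1-2 replicates 1 to 3, against 20627, 18589.8 and 19659 on wild-type replicates 1 to 3. Its highest value was that of pif1-2 replicate 3, and the groups overlapped (log2 fold change 0.24, SE 0.13). Without that array it was 0.13, and with quantile normalization 0.091. AT1G78040, of the Ole e 1 family of secreted glycoproteins first known as pollen allergens, had signals of 20533, 23151 and 26829 on pif1-2 replicates 1 to 3, against 19657, 22105 and 21321 on wild-type replicates 1 to 3. Here too the groups overlapped and pif1-2 replicate 3 was highest (log2 fold change 0.15, SE 0.13). Without that array it was 0.054, and with quantile normalization 0.010. AT3G16370, a GDSL-type esterase or lipase of the secreted kind, had signals of 16174, 22387 and 17417 on pif1-2 replicates 1 to 3, against 14368, 17645 and 16626 on wild-type replicates 1 to 3. Its pif1-2 replicate 2 stood above the rest, and the other 2 pif1-2 arrays fell within the wild-type range (log2 fold change 0.19, SE 0.15), with a value of 0.055 without pif1-2 replicate 2.

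Class III peroxidases are secreted heme enzymes that oxidise phenolics and cross-link or loosen walls through hydrogen peroxide, and 3 of them are among the 32 genes. PRXR1 had signals of 9245, 7674 and 7764 on pif1-2 replicates 1 to 3, against 10429, 10800.2 and 11799.6 on wild-type replicates 1 to 3. The groups did not overlap, and its mean was 8228 ± 882 in pif1-2 and 11010 ± 709 in wild type (SD, n = 3 each). Its log2 fold change of -0.42 (SE 0.13, 95% interval -0.70 to -0.15) was the lowest of the 32, but did not pass the threshold (limma adjusted p = 0.476). It ranged from -0.51 to -0.37 when any 1 array was left out, was -0.47 with quantile normalization and had the same sign under all 16 alternatives. None of these 16 changed the choice of genes. Choosing by wild-type values tilts the differences of genes near the limit towards lower, and PRXR1 lies near it. Among the 40 nuclear genes chosen by the mean of all 6 arrays, which leave PRXR1 out, the lowest log2 fold change was -0.17. AT2G37130 had signals of 20367, 19637 and 14681 on pif1-2 replicates 1 to 3, against 19525, 18595 and 20348 on wild-type replicates 1 to 3. Only pif1-2 replicate 3 departed from the others, and the log2 fold change of -0.11 (SE 0.14) became 0.039 without that array. AT5G64100 had signals of 15918, 18936 and 16036 on pif1-2 replicates 1 to 3, against 12432, 17406 and 16950.2 on wild-type replicates 1 to 3. Its lowest value was wild-type replicate 1, and the log2 fold change of 0.13 (SE 0.15) became -0.022 without that array. The 3 peroxidases thus had no common direction. ATPMEPCRD, a pectin methylesterase that removes methyl groups from wall pectin, had signals of 15434, 13509.7 and 11198 on pif1-2 replicates 1 to 3, against 14236, 11065 and 11493 on wild-type replicates 1 to 3. Replicate 1 was highest in both genotypes, and the groups overlapped (log2 fold change 0.12, SE 0.15). The value was 0.013 without pif1-2 replicate 1 and 0.24 without pif1-2 replicate 3.

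The enzyme of ER bodies and its lectin partners make up 3 genes. ER bodies are spindle-shaped stores of beta-glucosidase in the epidermis of Brassicaceae seedlings, and on wounding PYK10 meets jacalin-related lectins with which it aggregates. PYK10, the main beta-glucosidase of these bodies, had signals of 19626, 18884 and 15093 on pif1-2 replicates 1 to 3, against 16168, 19647 and 19101 on wild-type replicates 1 to 3. The groups overlapped over nearly their whole range (log2 fold change -0.039, SE 0.14), with a log2 fold change of 0.078 without pif1-2 replicate 3 and 0.015 without wild-type replicate 2. JAL33 had signals of 17038, 13599 and 15680.5 on pif1-2 replicates 1 to 3, against 13672, 14791 and 15633 on wild-type replicates 1 to 3, again with overlap (log2 fold change 0.067, SE 0.13, or -0.0070 when leaving out pif1-2 replicate 1). JAL34, its chromosomal neighbour, had signals of 15385.5, 14934 and 13995 on pif1-2 replicates 1 to 3, against 13808.5, 13269 and 12604 on wild-type replicates 1 to 3. All 3 pif1-2 arrays were above all wild-type arrays, by little (log2 fold change 0.16, SE 0.11, limma adjusted p = 0.798). JAL33 and JAL34 are related in sequence, and cross-hybridisation between them was not tested.

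Stress, dormancy and metal-binding proteins make up 6 genes, with a median log2 fold change of 0.23, 5 positive and 1 negative, and 0 called. At an unadjusted p under 0.05, 1 was on the higher side and 0 on the lower side, where all probe sets gave 3.31% and 4.36%. COR47, a dehydrin that protects membranes and proteins in cold or dry cells and also accumulates in seeds, had signals of 21305, 18687 and 26672 on pif1-2 replicates 1 to 3, against 17817.5, 18998.5 and 17843 on wild-type replicates 1 to 3. The pif1-2 replicate 3 array was far the highest and pif1-2 replicate 2 fell within the wild-type range (log2 fold change 0.27, SE 0.14). Without pif1-2 replicate 3 it was 0.13, and with quantile normalization 0.10. AT1G56220, of the dormancy- and auxin-associated family named after genes of resting buds, had signals of 16430.4, 17135 and 21483 on pif1-2 replicates 1 to 3, against 14421, 15368 and 14806 on wild-type replicates 1 to 3. The groups did not overlap. The log2 fold change was 0.29 (SE 0.13, limma adjusted p = 0.637), and 0.18 without pif1-2 replicate 3. AT3G15450, of a family first described as aluminium-induced, had signals of 21342, 23839 and 23465 on pif1-2 replicates 1 to 3, against 19596, 20127 and 19822 on wild-type replicates 1 to 3. Wild type was tight at 19848 ± 266 (SD, n = 3) and all 3 pif1-2 arrays were above it (log2 fold change 0.20, SE 0.11, limma adjusted p = 0.717). AT1G62480, of a family of vacuolar calcium-binding proteins, had signals of 13056, 14791 and 20531 on pif1-2 replicates 1 to 3, against 11958, 13443 and 14580.1 on wild-type replicates 1 to 3. Its pif1-2 replicate 3 stood apart (log2 fold change 0.25, SE 0.16), and the log2 fold change was 0.065 without that array.

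MT1C, a metallothionein whose cysteines bind copper and zinc, had signals of 10805, 9938 and 11988 on pif1-2 replicates 1 to 3, against 10532, 12087.5 and 14551 on wild-type replicates 1 to 3. The groups overlapped, and the highest value was that of wild-type replicate 3. Its log2 fold change of -0.17 (SE 0.14) was -0.053 without that array. AT2G36320, with the A20/AN1 zinc fingers of stress-associated proteins, had signals of 9746.5, 10754 and 12857 on pif1-2 replicates 1 to 3, against 10677, 11199 and 10088 on wild-type replicates 1 to 3. The wild-type arrays fell within the range of the pif1-2 arrays (log2 fold change 0.053, SE 0.13, or -0.056 when leaving out pif1-2 replicate 3).

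**Figure D3:**
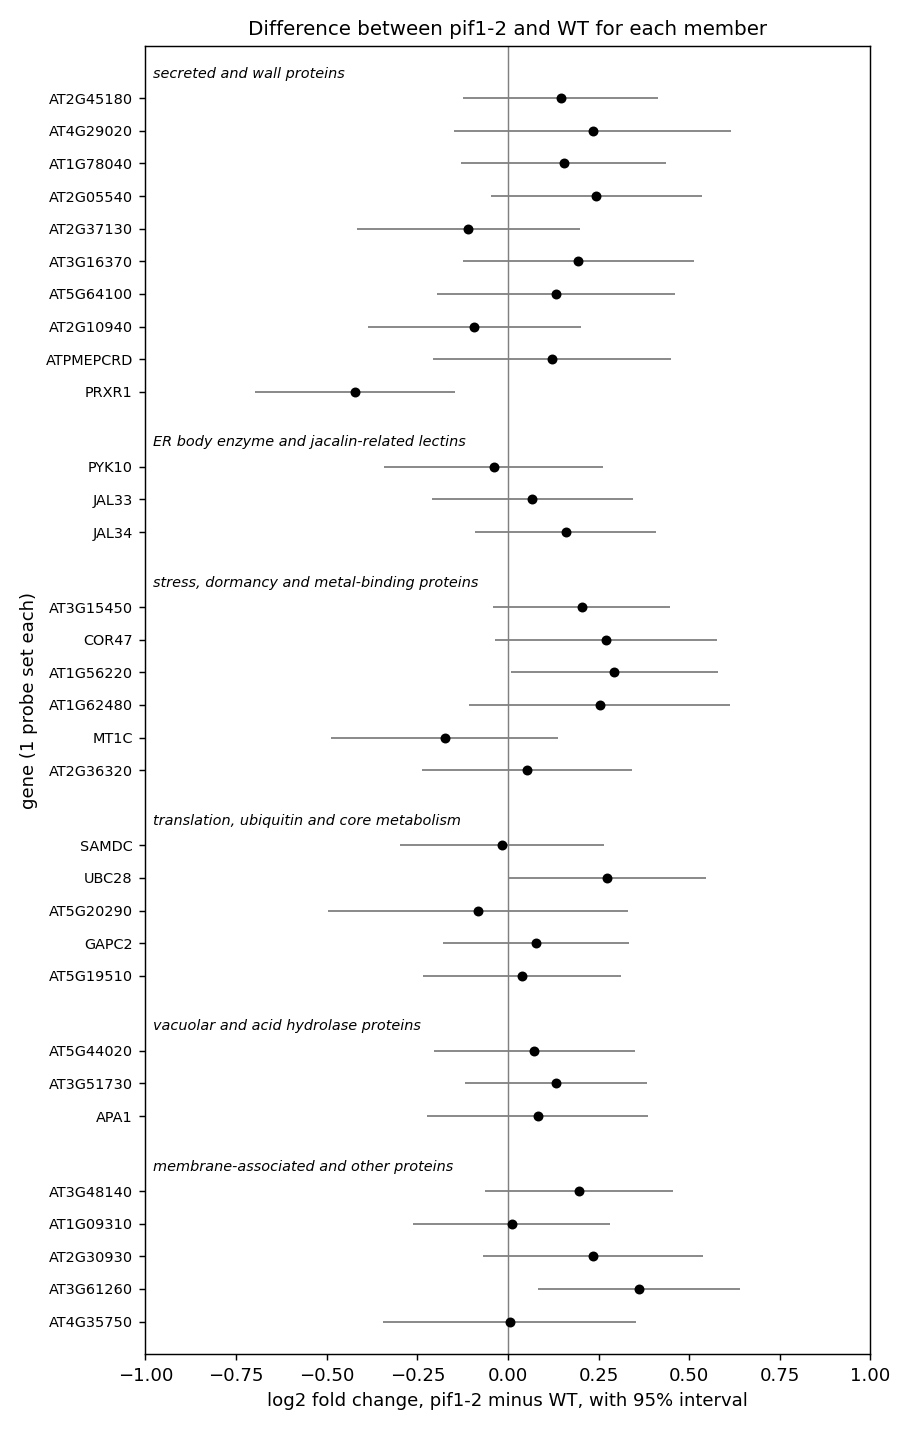
Log2 fold change of each of the 32 genes (x axis, pif1-2 minus wild type), with 95% intervals from limma as horizontal lines and genes in rows grouped by function. The intervals of 28 genes hold 0, and PRXR1 at -0.42 lies farthest to the left.

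Translation, ubiquitin and core metabolism make up 5 genes, with a median log2 fold change of 0.038, 3 positive and 2 negative, and 0 called. In this group 1 gene was on the higher side and 0 on the lower side at a limma unadjusted p under 0.05. All probe sets gave 3.31% and 4.36%. AT5G20290, a protein of the small cytosolic ribosomal subunit, had signals of 10772, 12259 and 18506 on pif1-2 replicates 1 to 3, against 12093, 15032 and 15975 on wild-type replicates 1 to 3. The pif1-2 arrays held both its lowest and its highest value, so that this gene had the widest spread of the 32 in pif1-2, with a coefficient of variation of 29.6% (log2 fold change -0.083, SE 0.19, or 0.078 when leaving out pif1-2 replicate 1 and -0.31 when leaving out pif1-2 replicate 3). AT5G19510, a subunit of the exchange factor that recharges elongation factor 1, had signals of 9498, 11203 and 11600.5 on pif1-2 replicates 1 to 3, against 11125, 10051 and 10197 on wild-type replicates 1 to 3 (log2 fold change 0.038, SE 0.13, or -0.018 when leaving out pif1-2 replicate 3). GAPC2, a cytosolic glyceraldehyde-3-phosphate dehydrogenase of glycolysis, had signals of 12207, 13546 and 13557 on pif1-2 replicates 1 to 3, against 12302, 13211.5 and 11755 on wild-type replicates 1 to 3. Its groups overlapped (log2 fold change 0.077, SE 0.12, or 0.038 when leaving out wild-type replicate 3). SAMDC, the S-adenosylmethionine decarboxylase that supplies aminopropyl groups for polyamines, had signals of 16111, 18320.3 and 13941 on pif1-2 replicates 1 to 3, against 15595, 16661 and 16367 on wild-type replicates 1 to 3. Its wild-type arrays fell within the range of the pif1-2 arrays (log2 fold change -0.016, SE 0.13, or 0.085 when leaving out pif1-2 replicate 3).

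UBC28, an E2 enzyme that passes ubiquitin on to target proteins, had signals of 16401, 17149 and 18769.8 on pif1-2 replicates 1 to 3, against 16241, 13649.8 and 13452 on wild-type replicates 1 to 3. The groups did not overlap, but the lowest pif1-2 array was close to wild-type replicate 1. The log2 fold change was 0.27 (SE 0.13, limma adjusted p = 0.650). E2 genes of this family are close in sequence, and a share of its signal from relatives was not tested.

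Vacuolar and acid hydrolase proteins make up 3 genes, with log2 fold changes from 0.073 to 0.13. AT5G44020, an acid phosphatase-like protein related to vegetative storage proteins, had signals of 15632, 19265 and 18083 on pif1-2 replicates 1 to 3, against 15275, 17448 and 17569 on wild-type replicates 1 to 3. AT3G51730, with the saposin B domain of sphingolipid activators, had signals of 16014, 16957 and 14916 on pif1-2 replicates 1 to 3, against 15063, 14158 and 14409 on wild-type replicates 1 to 3. APA1, a vacuolar aspartic proteinase, had signals of 12253, 10013 and 13150.5 on pif1-2 replicates 1 to 3, against 12478, 10353 and 10519 on wild-type replicates 1 to 3. In each of these genes the groups overlapped. Their log2 fold changes were 0.073 (SE 0.13) for AT5G44020, 0.13 (SE 0.11) for AT3G51730 and 0.083 (SE 0.14) for APA1. Single arrays moved each of them. AT5G44020 was at 0.0073 without wild-type replicate 1, AT3G51730 at 0.088 without pif1-2 replicate 2 and APA1 at 0.00033 without pif1-2 replicate 3.

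Membrane-associated and other proteins make up the last 5 genes, all with positive log2 fold changes, of which 0 were called. Of all 151 probe sets at the limit on each wild-type array, 112 were positive. In this group 1 gene was on the higher side and 0 on the lower side at a limma unadjusted p under 0.05. All probe sets gave 3.31% and 4.36%. AT3G61260, a remorin, one of the plant proteins that line the inner face of the plasma membrane, had signals of 14739.8, 16999 and 17589 on pif1-2 replicates 1 to 3, against 14227, 12371 and 11824 on wild-type replicates 1 to 3. The groups did not overlap, and the means were 16442 ± 1504 in pif1-2 and 12807 ± 1260 in wild type (SD, n = 3 each). Its log2 fold change of 0.36 (SE 0.13, 95% interval 0.082 to 0.64) was the highest of the 32 and did not pass the threshold (limma adjusted p = 0.583). It ranged from 0.31 to 0.44 when any 1 array was left out and was 0.25 with quantile normalization.

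AT3G48140, a small protein of the B12D family, had signals of 17068, 18325 and 19592 on pif1-2 replicates 1 to 3, against 14708, 16738 and 16538 on wild-type replicates 1 to 3. The groups did not overlap (log2 fold change 0.20, SE 0.12, limma adjusted p = 0.743). AT2G30930, to which no role is given here, had signals of 15663, 17634 and 19487 on pif1-2 replicates 1 to 3, against 12729, 16658 and 15544 on wild-type replicates 1 to 3. Wild-type replicate 1 was its lowest array, and the groups overlapped (log2 fold change 0.24, SE 0.14, or 0.12 when leaving out wild-type replicate 1). AT1G09310, of a family with a DUF538 domain of unknown function, had signals of 15113, 15371 and 16471 on pif1-2 replicates 1 to 3, against 13613, 16697 and 16476 on wild-type replicates 1 to 3, with a log2 fold change of 0.011 (SE 0.12), and -0.084 without wild-type replicate 1. AT4G35750, with the SEC14-like fold that carries phospholipids, had signals of 14719.5, 10469 and 11365 on pif1-2 replicates 1 to 3, against 14334, 10599.6 and 11417 on wild-type replicates 1 to 3. Its replicate 1 arrays were alike and higher than the rest in both genotypes, and the log2 fold change was 0.0048 (SE 0.16), and -0.14 without pif1-2 replicate 1.

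Arrays of 1 genotype differed among themselves. Over the 32 genes the coefficient of variation was 4.61% to 29.6% in pif1-2 (median 12.3%) and 1.34% to 17.6% in wild type (median 7.35%), and it was larger in pif1-2 for 25 genes. Wild-type values chose the genes, so that difference is given with no test. Over all probe sets tested, the median SD of log2 signal was 0.23 in pif1-2 and 0.20 in wild type, and for the 32 genes it was 0.18 in pif1-2 and 0.11 in wild type. Of the 32 genes, 16 had their highest signal of all 6 arrays on pif1-2 replicate 3, and 4 had their lowest there. That array had an actin control 3-prime to 5-prime signal ratio of 8.07, against 3.82 and 5.17 on the other pif1-2 arrays and 3.53 to 4.49 on the wild-type arrays. The part of this in the levels was not tested. Without that array the median log2 fold change of the 32 was 0.082, with 25 positive.

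Replicate number also ran through the values. Replicate 1 was the lowest array in both genotypes at once for 13 of the 32 genes, replicate 2 for 3 and replicate 3 for 1. Replicate 1 was the highest in both for 3 genes, replicate 2 for 5 and replicate 3 for 3. These counts, and those for pif1-2 replicate 3 above, were made over the 32 genes alone. Whether they are particular to these genes was not tested. Over all 17695 probe sets tested, same-numbered arrays also deviated alike from their group means, with correlations of 0.25, 0.099 and 0.088 for replicates 1 to 3. What a replicate number stands for is not in the labels, which describe biological replicates.

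**Figure D4:**
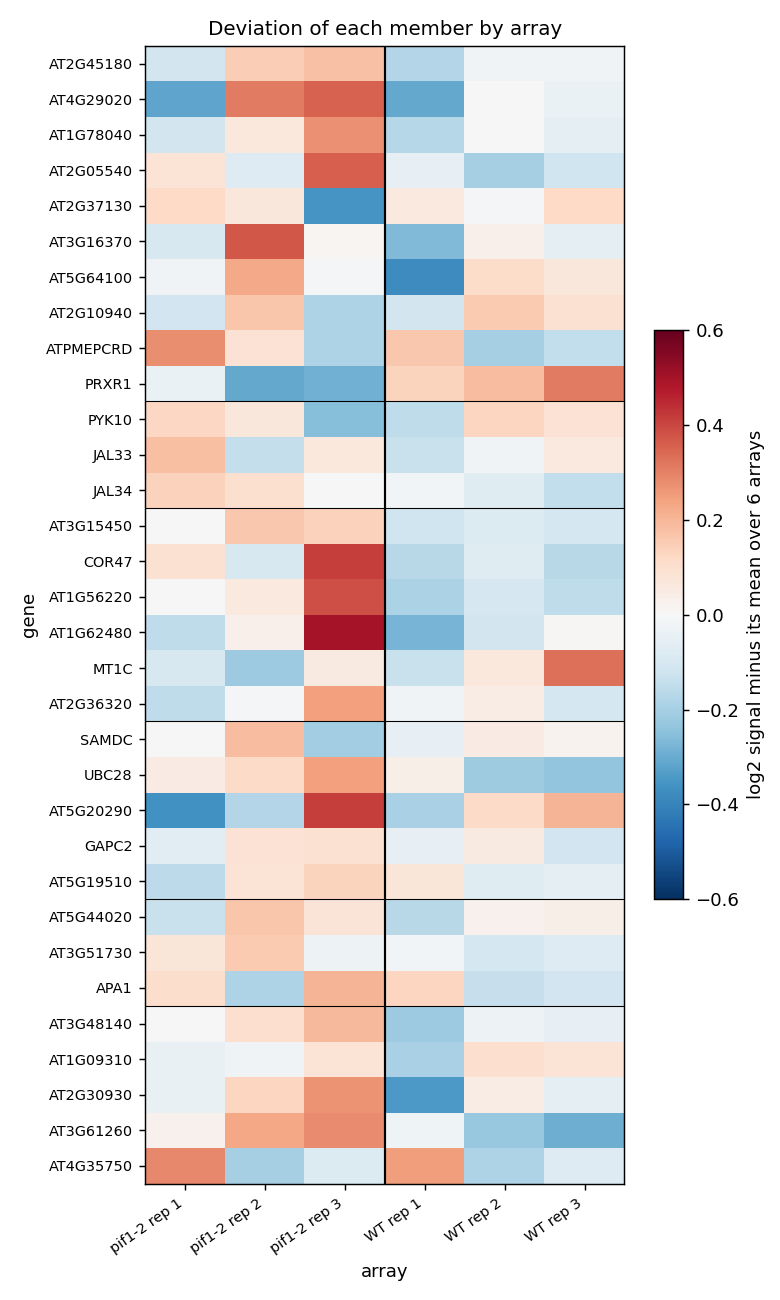
Log2 signal of each of the 32 genes (rows, in the order of the functional groups) on each array (columns, pif1-2 left of wild type) minus its mean over 6 arrays, from blue (lower) to red (higher). Wild-type replicate 1 holds the lowest of all 6 values for 12 genes and pif1-2 replicate 3 the highest for 16.

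Around the limit the choice is a narrow one. Just inside it were AT5G19510, AT2G36320 and APA1, whose lowest wild-type signals were 10051, 10088 and 10353. Just outside it were AT4G16190, AT2G45820 and AT1G27290, with lowest wild-type signals of 9408, 9322 and 9189.8. Of the 33 nuclear genes that reach 10000 on each pif1-2 array, 28 (84.8%) are among the 32, of which they are 87.5%. The other 5 were AT4G16190, WLIM2b, DI19, ICL and AT2G45820, and all of these were kept out by low wild-type arrays. ICL encodes isocitrate lyase, by which seed oil is turned into sugar, and had signals of 12346.5, 11591 and 11049 on pif1-2 replicates 1 to 3, against 12449, 8045 and 6603 on wild-type replicates 1 to 3. Its wild-type replicate 1 was as bright as the pif1-2 arrays (log2 fold change 0.42, SE 0.19). AT2G45820, another remorin, had signals of 10896, 11452 and 13877 on pif1-2 replicates 1 to 3, against 10615, 9485 and 9322 on wild-type replicates 1 to 3, without overlap (log2 fold change 0.29, SE 0.13). AT4G16190, a papain-type cysteine protease, had signals of 13853, 13021.5 and 10574 on pif1-2 replicates 1 to 3, against 13659, 10075 and 9408 on wild-type replicates 1 to 3 (log2 fold change 0.19, SE 0.16). WLIM2b, which bundles actin filaments, and DI19, a zinc finger protein of the drought response, had log2 fold changes of 0.15 and 0.088.

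Lists of genes for 17 functions, matched by symbol and synonym, placed 7 of the 32 genes among 1 or more of their tested members. The ubiquitin and proteasome list had 13 genes tested, of which 1, UBC28, is among the 32, and 0 were called, with 2 on the higher side and 1 on the lower side before adjustment (p under 0.05). For these and the following counts, all probe sets gave 3.31% on the higher side and 4.36% on the lower side. The wall protein list had 31 genes tested, with ATPMEPCRD among the 32, 0 called, with 2 on the higher and 4 on the lower side. The redox and metallothionein list had 21, with MT1C and PRXR1 among the 32, 0 called, and 0 higher and 2 lower. The seed protein list had 12, with COR47 among the 32, 0 called, and 1 higher and 1 lower. The glycolysis list had 4, with GAPC2 among the 32, and the methionine list held SAMDC alone, with 0 called in both. Median log2 fold changes of these 6 lists were -0.0075, -0.097, -0.099, -0.012, -0.032 and -0.016, against 0.00095 over all probe sets tested. The other lists matched none of the 32, but the matching missed genes named by locus alone. Missed in this way were the glycine-rich AT4G29020 and AT2G05540 and the elongation factor subunit AT5G19510. The peroxidases AT2G37130 and AT5G64100 were likewise missed by the redox list. A list without a match is therefore no sign that its family is absent from the 32. Photosynthesis (8 tested), tubulin and actin (8), histones (7), chaperones and cyclophilins (9) and proton pumps (3) had 0 called. Translation factors, the glyoxylate cycle and glycine-rich or RNA-binding proteins had 1 gene tested each and 0 called. The lists of ribosomal proteins, aquaporins and lipid transfer proteins had 0 genes tested, since most genes are named by locus alone. They say nothing of those families.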

How the data were processed

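RNA of whole seedlings was measured on 6 ATH1 arrays, 3 per genotype, labelled from 20 µg of total RNA per the labels. What the authors deposited is a linear intensity for each probe set, computed array by array with MAS5, per the submitters' processing notes. The MAS5 version and its parameters: not given in the sources used here. Values are already scaled, since rescaling each array to a 2% trimmed mean of 500 without the controls used factors of 1.01 on all 6.

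The 32 genes were taken from the deposited signals. For the comparison, rescaled signals with a mean of at least 50 over the 6 arrays (17695 probe sets) were taken as log2(signal + 16) and fitted with limma 3.58.1 in R 4.3.3 (intensity trend, two-sided, Benjamini-Hochberg over all probe sets, threshold 0.05). Fold changes are pif1-2 minus wild type. A fit of simulated arrays of this size was tested first. The changes put into them were larger than any found for the 32 genes. It therefore does not show how well changes as small as theirs would be called. The titles call the replicates biological without saying whether they were grown apart, and p-values reflect only how far these 6 arrays vary. With 3 arrays per group the precision is limited.

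Gene names came from the platform's annotation (13513 probe sets with 1 gene, 503 with several, 8730 not listed) and matched to the RefSeq gene table of TAIR10.1. No sequences or coordinates are given. The functional lists were to be matched on gene descriptions too, which those tables do not hold, so symbols and synonyms were used. The planned features of promoters and proteins were not analysed here. The genes and lists were chosen with earlier results of these data known, and the functional groups were formed after the genes were seen. The rule for naming asked for values of the 12 brightest genes in wild type, the 6 lowest and 6 highest fold changes, the genes nearest the limit and the brightest of each group, and values of the remaining genes are given as well.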

Additional observations from a re-analysis of the deposited data

How the results depend on the processing

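In all 21 alternatives, 0 of the genes chosen were called. At an unadjusted p under 0.05 the count was 4 of 32 (12.5%, against 7.67% of all probe sets). It was 1 with quantile normalization (all probe sets 7.80%) or with no filter (6.99%), 2 with no intensity trend (6.74%) and 9 with the replicate block (28.1%, against 11.3%). When any 1 array was left out it was 1 to 6, against 4.61% to 9.47% of all probe sets, with 1 without wild-type replicate 2 or replicate 3 and 2 without pif1-2 replicate 3. It was 21 of 137 genes (15.3%) with a limit of 5000 and 0 of 10 with a limit of 15000, both against 7.67%. The median log2 fold change was 0.020 with quantile normalization and 0.077 to 0.15 under the other 20 alternatives, against 0.13; it was 0.082 to 0.14 when any 1 array was left out. The share of signal in pif1-2 was 8.37% with a limit of 5000, 1.36% with 15000, 3.53% with the mean of the wild-type arrays at the limit and 3.97% with the mean of all 6 arrays there. In wild type it was 8.05%, 1.26%, 3.31% and 3.67% under the same choices, and with quantile normalization 3.28% in pif1-2 and 3.27% in wild type. The genes at the limit on every pif1-2 array were 117 of 137 with 5000 and 8 of 10 with 15000, against 28 of 32.

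Of 512 single-gene values 487 kept their sign and 25, in 12 genes, changed it. The cause was not tested. With quantile normalization the log2 fold changes of AT2G45180, AT5G44020, AT1G09310, JAL33, AT4G35750, AT2G36320 and AT5G19510 were -0.040, -0.052, -0.092, -0.0030, -0.072, -0.020 and -0.030, with array weights those of AT1G09310 and AT2G36320 were -0.046 and -0.0097, and with median centring that of SAMDC was 0.0032. When any 1 array was left out, the sign turned in 10 genes, with values of -0.20 to 0.039 for AT2G37130, -0.13 to 0.078 for PYK10, -0.11 to 0.085 for SAMDC, -0.022 to 0.22 for AT5G64100, -0.084 to 0.063 for AT1G09310, -0.0070 to 0.16 for JAL33, -0.31 to 0.078 for AT5G20290, -0.14 to 0.13 for AT4G35750, -0.056 to 0.14 for AT2G36320 and -0.018 to 0.13 for AT5G19510.

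Over all probe sets tested, same-numbered arrays deviated from their group means with correlations of 0.25, 0.099 and 0.088, and each array correlated best with its own number. The main fit did not take the numbers as pairs, and the labels do not say what they stand for. Whether the arrays were paired is not settled by these correlations. With the replicate block 0 genes of the 32 were called (45 of all probe sets, against 2 in the main fit), PRXR1 having the lowest limma adjusted p, 0.166.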
